A study of Mus musculus with 8 samples.

Results

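The E2F transcription factors and the pocket proteins that bind them were followed in mouse embryonic fibroblasts (MEFs, connective tissue cells grown in culture) under glucose starvation. The genes were taken by symbol: E2f1 to E2f8, Rbl1 and Rbl2, which are 10 of the 49492 gene rows in the expression table. Rb1, which also encodes a pocket protein, was not among the genes taken. All 10 passed the filter on low values (at least 1 in 2 or more samples), as did 16232 genes in all. The study crossed 2 genotypes with 2 media, with 2 replicates in each of the 4 groups. WT MEFs expressed Flag-tagged wild-type Pontin, and RA MEFs expressed Flag-tagged Pontin in which the methylated arginines were changed to alanine. The Ruvbl1 gene encodes Pontin, an ATPase that works in chromatin remodeling. Both lines came from Pontin f/f MEFs established by the 3T3 protocol, were selected with hygromycin after lentiviral transduction and had lost the endogenous Pontin gene through Cre virus. Each genotype was thus a single stable line, so an effect of the Pontin form and a difference between the lines cannot be told apart. Control cells were in normal medium, and starved cells were in glucose-free medium with dialyzed serum. The duration of starvation is not given in the labels of these samples. Columns of the table are headed minus or plus, and minus was taken as normal medium and plus as starved, following the marks the study uses for starvation. Nothing in the labels says that replicates were separate cultures, so p-values measure only the spread between these samples.

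Values are CPM (read counts over a library size that was scaled per sample), given per library or as mean ± SD with n = 2. Between 43205841 and 56363034 reads were recovered per library. The starved RA libraries differed most from each other (chi-square over degrees of freedom 14.65, against 3.328 to 5.995 in the other groups). The Ruvbl1 level was 27.98 ± 0.58 for WT in normal medium, 28.2 ± 0.38 for starved WT, 34.4 ± 3.4 in RA in normal medium and 44.0 ± 1.5 in starved RA. Reads from the added copy may be counted with those of the gene, so this level does not check the deletion. Of 10 fibroblast markers 9 were tested, and their summed value ran from 9918 to 10250 in normal medium, from 5313 to 5406 in starved WT and from 7042 to 7059 in starved RA. The summed value of 4 endothelial markers ran from 2.02 to 3.43 in normal medium, from 8.92 to 9.43 in starved WT and from 5.99 to 6.34 in starved RA. The endothelial rise was that of Kdr (from 1.997 to 6.39 in WT means) and Tek (from 0.273 to 2.69), while Pecam1 went from 0.390 to 0.0693 and Cdh5 from 0.295 to 0.0210. Of the fibroblast markers, Dcn went from 13.5 to 34.9 and Fn1 from 2370 to 3173 in RA, against the sum. The summed values of 5 epithelial, 4 blood and 3 neural markers stayed at or below 1.72, 0.165 and 0.746, and Krt5 and Krt14, which mark epithelium, were at 0 in every library. The part of these markers in the results was not tested.

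E2F proteins bind the promoters of cell cycle genes, mostly as dimers with DP proteins. E2F1, E2F2 and E2F3 are known as activators of S phase genes. E2F4 and E2F5 act mainly as repressors in resting cells, where they join the pocket proteins p107 (encoded by Rbl1) and p130 (encoded by Rbl2). With E2F4, E2F5, DP and the MuvB proteins, p107 and p130 form the DREAM complex, which shuts off cell cycle genes during quiescence. E2F6 silences genes through Polycomb-like complexes without a pocket protein. E2F7 and E2F8 are atypical members that bind DNA without DP, repress E2F targets and are themselves E2F targets. Cyclin-dependent kinases release E2Fs from pocket proteins, a step that RNA levels do not show.

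Promoter windows from RefSeq, running from 250 bases before to 50 after a transcript start on GRCm38.p6, were matched by symbol for 8 of the 10 genes. E2f4 and E2f5 had no entry. The words searched on either strand were the E2F words TTTCCCGC, TTTCGCGC, TTTGCCGC and TTTGGCGC, the CHR words TTTGAA and TTCGAA (the cell cycle homology region bound by MuvB), and the CCAAT box. An E2F word was present in 2.26% of all 32851 windows, a CHR word in 19.2% and CCAAT in 37.4%. Counted per gene over the tested genes with a window, the shares were 4.59%, 16.7% and 43.0%. Among the 8 genes, 4 held an E2F word: E2f2, E2f3, E2f7 and Rbl1. A CHR word was found for E2f2, E2f3, E2f8 and Rbl2. No E2F or CHR word was in the windows of E2f1 and E2f6, which says only that these letters were not in these windows. The RefSeq start of E2f1 lies 466 bases downstream of its outermost GENCODE start. The 250 bases before the start are printed for E2f3 (the outermost of its RefSeq starts), E2f7, E2f8 and Rbl1 as examples of windows with an E2F word, a CHR word or both upstream of the start. They are written 5′ to 3′ on the strand of the gene, and capitals mark E2F words, CHR words and CCAAT boxes, or their reverse complements.
E2f3 (chr13:29986064-29986313, minus strand): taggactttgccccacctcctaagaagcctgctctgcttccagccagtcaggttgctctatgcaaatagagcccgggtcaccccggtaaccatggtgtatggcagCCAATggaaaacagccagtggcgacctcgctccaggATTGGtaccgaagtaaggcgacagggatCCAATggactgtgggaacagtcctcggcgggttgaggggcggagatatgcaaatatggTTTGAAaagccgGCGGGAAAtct
E2f7 (chr10:110745189-110745438, plus strand): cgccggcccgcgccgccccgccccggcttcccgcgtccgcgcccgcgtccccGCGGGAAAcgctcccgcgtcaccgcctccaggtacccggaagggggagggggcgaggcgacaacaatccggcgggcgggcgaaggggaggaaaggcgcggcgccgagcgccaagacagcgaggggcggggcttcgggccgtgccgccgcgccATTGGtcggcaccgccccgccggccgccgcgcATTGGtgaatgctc
E2f8 (chr7:48881597-48881846, minus strand): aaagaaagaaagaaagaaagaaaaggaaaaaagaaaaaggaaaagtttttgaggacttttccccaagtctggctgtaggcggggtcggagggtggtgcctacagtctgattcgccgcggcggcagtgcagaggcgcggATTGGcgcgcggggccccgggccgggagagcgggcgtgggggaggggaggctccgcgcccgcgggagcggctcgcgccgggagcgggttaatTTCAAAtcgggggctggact
Rbl1 (chr2:157204535-157204784, minus strand): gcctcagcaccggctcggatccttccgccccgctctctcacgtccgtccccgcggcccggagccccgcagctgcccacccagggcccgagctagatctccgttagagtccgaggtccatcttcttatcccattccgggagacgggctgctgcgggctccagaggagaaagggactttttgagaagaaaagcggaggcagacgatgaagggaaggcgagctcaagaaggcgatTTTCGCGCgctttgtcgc
The E2F word began at position -11 in E2f3, -198 in E2f7 and -18 in Rbl1, counted from the transcript start, and lay on the strand of the gene in Rbl1 and on the other strand in E2f3 and E2f7. The CHR word began at position -23 in E2f3 and -20 in E2f8. In E2f2 the CHR word began at position -31 of an inner start, which lies 8388 bases downstream of the outermost GENCODE start. An E2F word began at position 40 of its outer RefSeq start. The stretch there (positions 25 to 50, counted from 1 after the start) was tttggcggcatatagTTTGGCGCtaa. A match of letters describes the window and does not show a bound site.

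Per kilobase of exon (the union of all exons in GENCODE M21 on GRCm38, while the reads were mapped to mm9), the order of levels in WT MEFs in normal medium ran from E2f4 to E2f2. E2f4 stood highest at 59.6 ± 2.2 per kb and E2f1 followed at 17.7 ± 0.59 per kb. E2f5 was at 10.5 ± 0.051, E2f3 at 8.55 ± 0.73, E2f7 at 6.56 ± 0.17 and Rbl1 at 5.89 ± 0.21 per kb. Rbl2 at 4.27 ± 0.18 and E2f6 at 3.94 ± 0.31 per kb were neighbours within their spread. E2f8 was at 3.15 ± 0.19 per kb, and E2f2 was lowest at 1.34 ± 0.054 per kb.

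**Figure D1:**
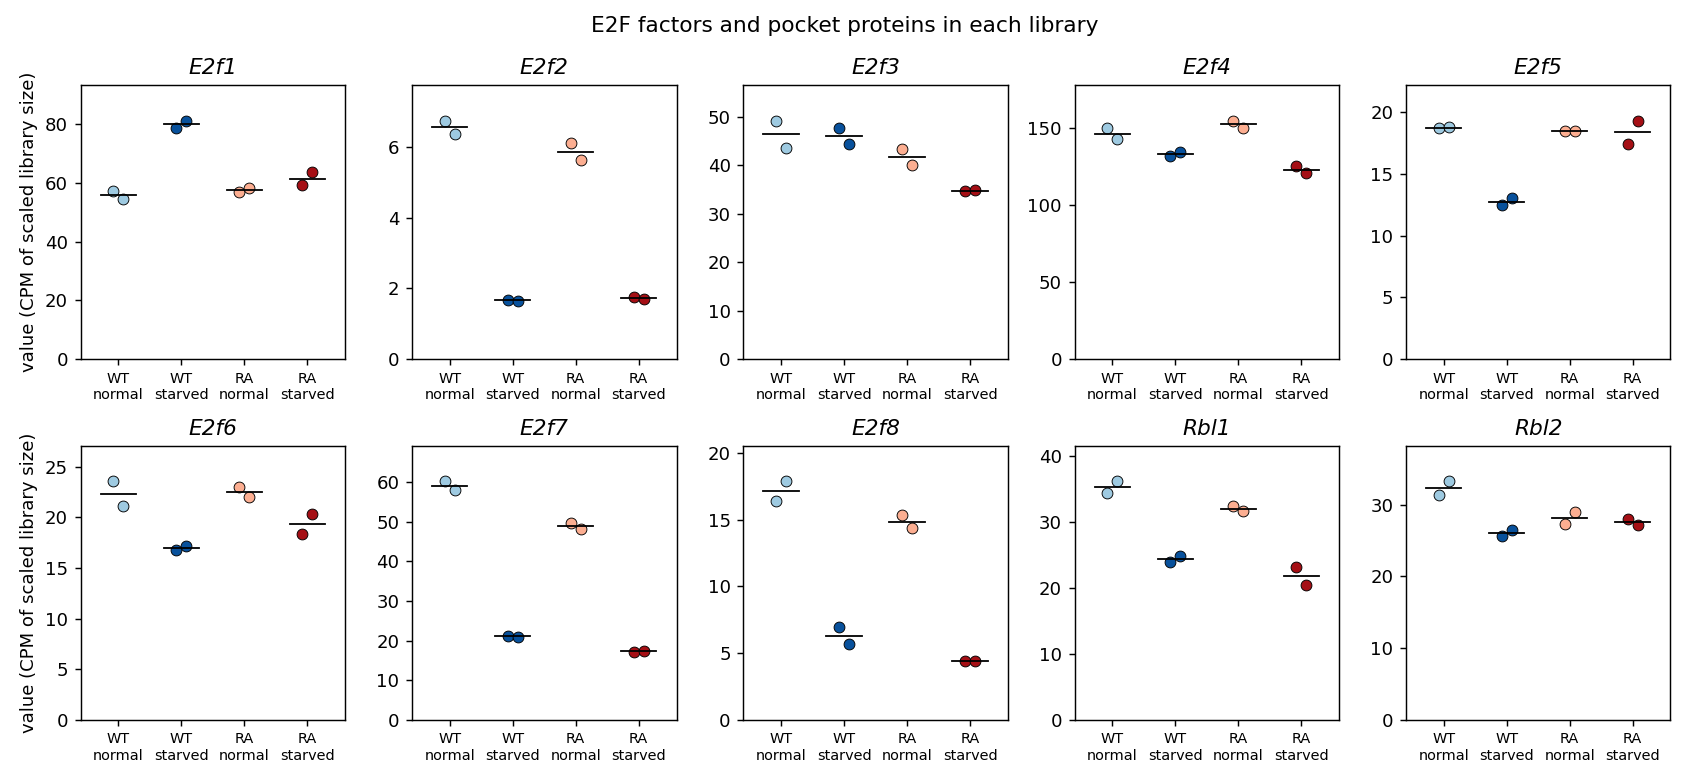
Value of each member (CPM of the scaled library size, y axis from 0) in each library, with a panel per gene and the 4 groups along the x axis. Points are libraries and horizontal lines are group means. E2f2, E2f7 and E2f8 are low in all 4 starved libraries of both genotypes, E2f1 is highest in the starved WT libraries, and E2f5 is lowest there.

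Starvation lowered most of these genes, and the response differed by genotype for some of them. In WT, 9 of the 10 genes were called between starved and normal medium at an adjusted p under 0.05 (limma on log2(value + 1), Benjamini-Hochberg over all tested genes), 1 higher and 8 lower, beside 78.6% of all tested genes (39.3% higher and 39.2% lower). In RA 7 were called, 0 higher and 7 lower, beside 68.7% (35.0% higher and 33.7% lower); limma at an unadjusted p, edgeR and DESeq2 also called 7. Both shares lie near those of all tested genes, while the members called were mostly lower. The median log2 difference over the 10 genes was -0.44 in WT and -0.28 in RA, against 0.01 over all tested genes in each. Between genotypes in normal medium 1 gene was called, which was lower in RA, beside 9.63% of all tested genes (6.68% higher and 2.95% lower). Under starvation 7 were called between RA and WT, 1 higher and 6 lower, beside 62.9% (30.8% higher and 32.1% lower); with total-read scaling 2 were higher and 4 lower, and edgeR and DESeq2 each called 6. The interaction (the RA response minus that of WT) was called for 5 genes, 2 higher and 3 lower in RA, beside 50.6% (24.5% higher and 26.1% lower); with total-read scaling 2 were higher and 1 lower. The comparisons share groups, so their counts are not independent of each other. In bulk RNA, fewer cycling cells and less RNA per cell cannot be told apart.

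**Figure D2:**
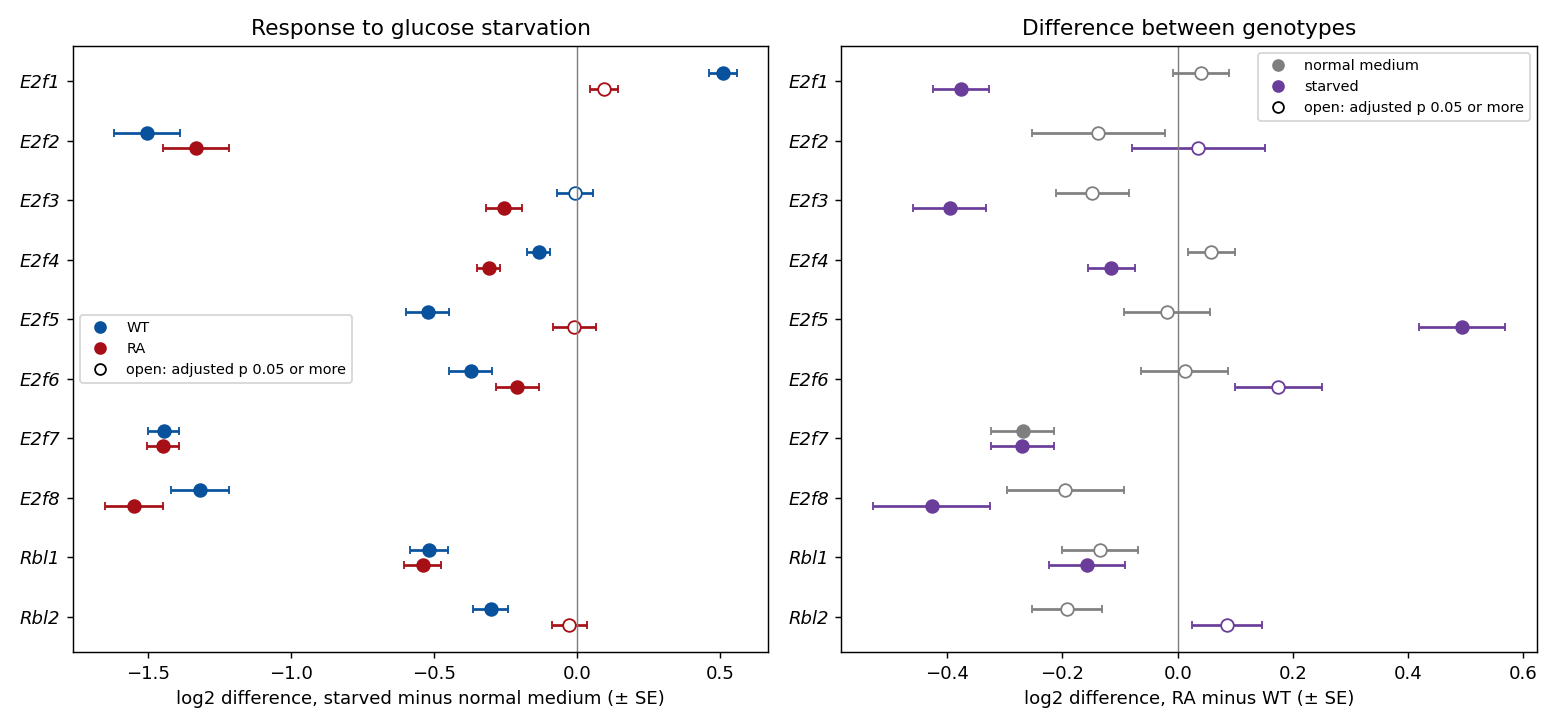
Log2 differences from limma for each member with ± 1 SE, as starved minus normal medium in each genotype (left) and RA minus WT in each medium (right); open circles had an adjusted p of 0.05 or more. E2f2, E2f7 and E2f8 fell by over 1.3 on the log2 scale in both genotypes, E2f1 was called higher upon starvation in WT, and E2f5 was higher in starved RA than in starved WT.

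Among the activators, E2f1 rose upon starvation in WT. Its values were 57.2 and 54.6 for WT in normal medium, 78.9 and 81.3 for starved WT, 56.9 and 58.2 for RA in normal medium, and 59.4 and 63.7 for starved RA. The starved WT libraries stood above all others, and the starved RA libraries lay just above the normal ones without overlap. The group mean rose 1.43-fold in WT (log2 difference 0.51, SE 0.048, limma adjusted p = 3.7e-08) and was 1.07-fold in RA (0.09, SE 0.048, limma adjusted p = 0.0945). The responses differed by -0.42 on the log2 scale (SE 0.068, limma adjusted p = 8.44e-05), and this difference kept its call in each alternative and without each library. Without replicate 1 of starved RA, the response in RA was called (0.14, limma adjusted p = 0.0455). Starved RA was below starved WT by -0.38 on the log2 scale (SE 0.048, limma adjusted p = 3.66e-06), while in normal medium the difference was 0.04 (SE 0.048, limma adjusted p = 0.644).

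E2f2, the least abundant activator, fell in both genotypes. It stood at 6.74 and 6.37 for WT in normal medium and at 1.68 and 1.64 for starved WT, from 310 and 316 reads down to 80 and 90. In RA the values were 6.11 and 5.62 in normal medium and 1.76 and 1.69 upon starvation. Starved and normal libraries did not overlap. The means fell 3.95-fold in WT (log2 difference -1.51, SE 0.12, limma adjusted p = 2.31e-09) and 3.39-fold in RA (-1.33, SE 0.12, limma adjusted p = 2.08e-08), and the log2(value + 1) scale understates such falls at low values. The difference between the responses was 0.17 (SE 0.16, limma adjusted p = 0.395).

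E2f3 was lower in starved RA than in any other group. Its values were 49.2 and 43.6 for WT in normal medium, 47.8 and 44.5 for starved WT, 43.4 and 40.0 for RA in normal medium, and 34.6 and 34.9 for starved RA. The WT groups overlapped (log2 difference -0.01, SE 0.063, limma adjusted p = 0.916). In RA the gene fell by 0.26 on the log2 scale upon starvation (SE 0.063, limma adjusted p = 0.0017), and starved RA was below starved WT by -0.40 (SE 0.063, limma adjusted p = 3.6e-05). The responses differed by -0.25 (SE 0.089, limma adjusted p = 0.028), but that call was lost with edgeR (adjusted p = 0.0558), with total-read scaling (limma adjusted p = 0.136) and when any of 5 libraries was left out. The limma adjusted p was then 0.162 without replicate 2 of WT in normal medium (log2 difference -0.16), 0.113 without replicate 1 of starved WT, 0.101 without replicate 1 of RA in normal medium, and 0.0697 and 0.0606 without replicates 1 and 2 of starved RA.

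The repressors E2f4 and E2f5 responded differently, E2f4 falling in both genotypes and E2f5 in WT. E2f4, whose protein is the main E2F of the DREAM complex, was at 149.8 and 142.4 for WT in normal medium, 131.7 and 134.3 for starved WT, 154.5 and 149.8 for RA in normal medium, and 125.0 and 120.4 for starved RA. The falls were small and the starved libraries of each genotype lay below its normal ones. In WT the log2 difference was -0.13 (SE 0.041, limma adjusted p = 0.00635; adjusted p = 0.0965 without replicate 1 of WT in normal medium), and in RA it was -0.31 (SE 0.041, limma adjusted p = 3.79e-06). The interaction of -0.17 (SE 0.058, limma adjusted p = 0.0191) was not called with total-read scaling (-0.10, limma adjusted p = 0.173), quantile normalization or edgeR, nor without replicate 2 of WT in normal medium (0.105), of starved WT (0.0561) or of starved RA (0.0937). Starved RA was below starved WT by -0.12 (SE 0.041, limma adjusted p = 0.0211). That call was lost with edgeR (adjusted p = 0.0643) and with total-read scaling (limma adjusted p = 0.0708). It was also lost without a trend (limma adjusted p = 0.0921) and with no filter (limma adjusted p = 0.0503). The difference was -0.10 without replicate 2 of starved WT and -0.09 without replicate 2 of starved RA.

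E2f5, the other partner of p130, was lower in starved WT alone among the groups. Its values were 18.7 and 18.8 for WT in normal medium, 12.5 and 13.1 for starved WT, 18.5 and 18.5 for RA in normal medium, and 17.5 and 19.3 for starved RA. The starved WT libraries lay below the other 6, which overlapped. The mean fell 1.47-fold in WT (log2 difference -0.52, SE 0.075, limma adjusted p = 6.58e-06), and in RA the log2 difference was -0.01 (SE 0.075, limma adjusted p = 0.919). Starved RA exceeded starved WT 1.44-fold (0.49, SE 0.075, limma adjusted p = 2.3e-05). The responses differed by 0.51 (SE 0.11, limma adjusted p = 0.000725), a call that was kept in each alternative and without each library, with the lowest difference under quantile normalization (0.35, limma adjusted p = 0.0127). E2f5 shares 26 exon bases with 1810022K09Rik on the other strand, and whether counting used strand is not stated.

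E2f6, which works without pocket proteins, fell in both genotypes. It stood at 23.5 and 21.1 for WT in normal medium, 16.8 and 17.2 for starved WT, 23.0 and 22.0 for RA in normal medium, and 18.4 and 20.3 for starved RA. The log2 difference was -0.37 in WT (SE 0.075, limma adjusted p = 0.000247) and -0.21 in RA (SE 0.075, limma adjusted p = 0.0213). The call in RA was lost without replicate 1 of RA in normal medium (limma adjusted p = 0.0993) or of starved RA (-0.14, 0.205). Between starved RA and starved WT the difference was 0.18 (SE 0.075, limma adjusted p = 0.0525), and it passed the threshold with edgeR (adjusted p = 0.0329), without replicate 2 of WT in normal medium (limma adjusted p = 0.0496) and without replicate 1 of starved RA (0.25, 0.0329). Under quantile normalization this difference was only 0.035 (limma adjusted p = 0.705), so its size depended on the scaling. The interaction was 0.16 (SE 0.11, limma adjusted p = 0.215), and 0.037 under quantile normalization (limma adjusted p = 0.801).

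The atypical members fell the most together with E2f2. E2f7 was at 60.2 and 58.0 for WT in normal medium, 21.2 and 21.0 for starved WT, 49.7 and 48.1 for RA in normal medium, and 17.2 and 17.4 for starved RA. Within each medium the RA libraries lay below the WT libraries, and no groups overlapped. Starvation lowered the mean 2.80-fold in WT (log2 difference -1.45, SE 0.055, limma adjusted p = 1.5e-13) and 2.83-fold in RA (-1.45, SE 0.055, limma adjusted p = 3.87e-13), with an interaction of -0.00 (SE 0.078, limma adjusted p = 0.989). RA was below WT by -0.27 in normal medium (SE 0.055, limma adjusted p = 0.00477), the only member called there, and by -0.27 under starvation (SE 0.055, limma adjusted p = 0.000398). Without replicate 1 of WT in normal medium, the call in normal medium was lost (-0.24, limma adjusted p = 0.086). Then 0 members were called in that comparison by limma, and 2 had an unadjusted p under 0.05. Over all 8 libraries edgeR called 2 and DESeq2 called 1 there.

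E2f8, with a CHR word in its promoter window, followed the same course at a lower level. Values were 16.4 and 17.9 for WT in normal medium, 6.91 and 5.66 for starved WT, 15.3 and 14.3 for RA in normal medium, and 4.39 and 4.42 for starved RA. All starved libraries lay below all normal ones, and starved RA lay below starved WT. The mean fell 2.72-fold in WT (log2 difference -1.32, SE 0.10, limma adjusted p = 2.58e-09) and 3.37-fold in RA (-1.55, SE 0.10, limma adjusted p = 5.54e-10). Starved RA was below starved WT by -0.43 (SE 0.10, limma adjusted p = 0.0016). The interaction of -0.23 (SE 0.14, limma adjusted p = 0.195) was called under quantile normalization alone (-0.39, limma adjusted p = 0.0316). E2f8 shares 610 exon bases with Gm2788 and E2f7 shares 86 with 1700020G17Rik, each on the other strand.

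Of the pocket protein genes taken here, Rbl1 fell in both genotypes and Rbl2 was called in WT. Rbl1, an E2F target that encodes p107, was at 34.4 and 36.2 for WT in normal medium, 23.9 and 24.8 for starved WT, 32.4 and 31.7 for RA in normal medium, and 23.1 and 20.4 for starved RA. The starved libraries of both genotypes lay below the normal ones. The mean fell 1.45-fold in WT (log2 difference -0.52, SE 0.066, limma adjusted p = 1.67e-06) and 1.47-fold in RA (-0.54, SE 0.066, limma adjusted p = 1.49e-06), with an interaction of -0.02 (SE 0.093, limma adjusted p = 0.852). The difference of starved RA from starved WT, -0.16 (SE 0.066, limma adjusted p = 0.0464), was called by neither edgeR (adjusted p = 0.0802) nor DESeq2 (adjusted p = 0.0549). That call was also lost without either replicate of WT in normal medium (limma adjusted p = 0.0552 and 0.0557), without replicate 1 or 2 of starved WT (0.0665 and 0.182) and without replicate 2 of starved RA (-0.07, 0.435).

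Rbl2 encodes p130, the pocket protein most abundant in resting cells. It stood at 31.3 and 33.2 for WT in normal medium, 25.6 and 26.4 for starved WT, 27.3 and 29.0 for RA in normal medium, and 28.05 and 27.2 for starved RA. Starvation lowered it in WT by 1.24-fold (log2 difference -0.30, SE 0.061, limma adjusted p = 0.000238), while the RA groups overlapped (-0.03, SE 0.061, limma adjusted p = 0.722). The responses differed by 0.28 (SE 0.086, limma adjusted p = 0.0134). This call was lost without replicate 2 of WT in normal medium (limma adjusted p = 0.0644) or replicate 1 of starved RA (0.0533). In normal medium RA was at -0.19 relative to WT (SE 0.061, limma adjusted p = 0.0577), which edgeR called (adjusted p = 0.0436), and under starvation the difference was 0.08 (SE 0.061, limma adjusted p = 0.238). Rbl2 shares 693 exon bases with Aktip and 892 with Gm45464 on the other strand.

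The ratio of Rbl1 to Rbl2 within a library does not depend on library scaling, and was described without a test. Its log2 value was 0.14 and 0.12 for WT in normal medium, -0.10 and -0.09 for starved WT, 0.25 and 0.13 for RA in normal medium, and -0.28 and -0.41 for starved RA. Rbl1 exceeded Rbl2 in all normal libraries and was below it in all starved ones. The change with starvation was larger in RA by -0.31 on the log2 scale. Gene lengths differ, so the ratio compares groups and not the amounts of the 2 transcripts.

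**Figure D3:**
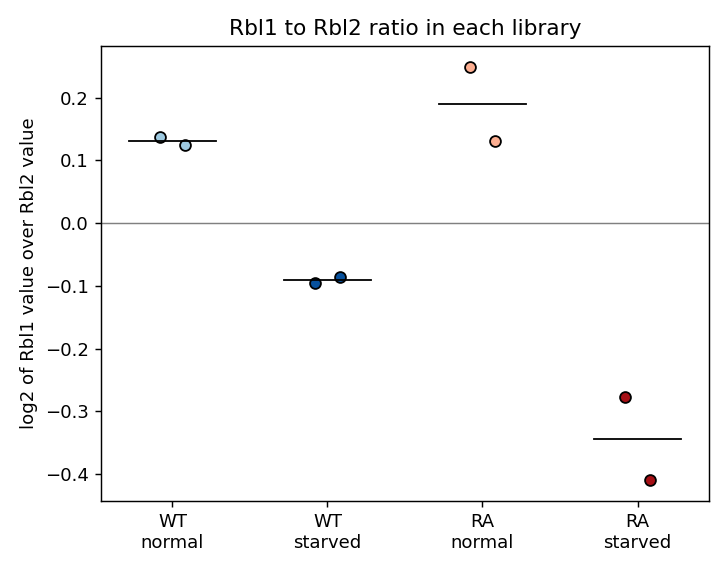
Log2 of the Rbl1 value over the Rbl2 value (y axis) in each library of the 4 groups (x axis); points are libraries and lines are group means. The 4 normal libraries lie between 0.12 and 0.25 and the 4 starved libraries below 0, with starved RA lowest at -0.28 and -0.41.

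The DP genes, whose proteins dimerize with E2F1 to E2F6, differed from each other. Tfdp1 was at 335 ± 7.7 for WT in normal medium, 248 ± 2.7 for starved WT, 312 ± 5.4 in RA in normal medium and 200 ± 2.0 in starved RA. It fell in WT (log2 difference -0.43, SE 0.036, limma adjusted p = 8.81e-09) and fell further in RA (-0.64, SE 0.036, limma adjusted p = 8.3e-11), with an interaction of -0.21 (SE 0.051, limma adjusted p = 0.00284). Tfdp2 resembled E2f1: it rose from 27.2 ± 0.96 to 39.6 ± 1.1 in WT (0.52, SE 0.063, limma adjusted p = 8.2e-07) and was at 24.5 ± 1.0 and 26.4 ± 1.6 in RA (0.10, SE 0.063, limma adjusted p = 0.17). The Tfdp2 responses differed by -0.42 (SE 0.089, limma adjusted p = 0.000854).

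MuvB is the core that joins E2F4 and p130 in DREAM, and B-Myb (Mybl2) and FoxM1 in dividing cells. The list of 8 held core genes (Lin9, Lin37, Lin52, Lin54 and Rbbp4) and partners (Mybl2, Foxm1 and Mybl1). Of these 8, 3 rose and 3 fell in WT upon starvation, the falls being those of Lin9, Mybl2 and Foxm1. In RA 1 rose and 5 fell. The interaction was called for 7, 1 higher and 6 lower in RA. Among all tested genes 78.6%, 68.7% and 50.6% were called, so the counts of starvation responses were near the background, and with total-read scaling 4 were called in WT. Lin52, the subunit that contacts p130, rose from 6.84 ± 0.27 to 20.8 ± 0.31 in WT (log2 difference 1.48, SE 0.089, limma adjusted p = 9.46e-11) and from 6.18 ± 0.49 to 13.6 ± 0.33 in RA (1.02, SE 0.089, limma adjusted p = 2.27e-08). Lin54, the subunit that binds CHR words, was at 29.5 ± 0.24 and 29.1 ± 0.58 in WT and fell from 29.97 ± 1.3 to 18.6 ± 0.67 in RA, with an interaction of -0.64 (SE 0.087, limma adjusted p = 1.32e-05). Lin9 fell in WT (-0.27, SE 0.080, limma adjusted p = 0.00491) and in RA (-0.67, SE 0.080, limma adjusted p = 1.17e-06). Rbbp4, a histone-binding subunit shared with other complexes, rose by 0.13 in WT (SE 0.036, limma adjusted p = 0.00416) and fell by 0.35 in RA (SE 0.036, limma adjusted p = 1.86e-07). Lin37 was not called in any comparison. Foxm1 fell less in RA (from 136 ± 1.1 to 50.04 ± 0.25) than in WT (from 147 ± 0.71 to 38.1 ± 1.5; interaction 0.49, SE 0.060, limma adjusted p = 4.2e-06). Mybl2 fell more in RA (from 76.0 ± 1.3 to 22.8 ± 1.7) than in WT (from 79.8 ± 1.8 to 29.1 ± 1.8; interaction -0.27, SE 0.083, limma adjusted p = 0.0128). Mybl1, a relative of Mybl2, had an interaction of -0.45 (SE 0.15, limma adjusted p = 0.0216).

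Of 10 listed partners of E2F6, 5 rose and 3 fell in WT, and 4 rose and 3 fell in RA, near the shares of all tested genes (39.3% higher and 39.2% lower in WT, 35.0% and 33.7% in RA). Max, which dimerizes with Mga in that complex, rose in WT (log2 difference 0.49, SE 0.047, limma adjusted p = 4.07e-08) and stood at 0.06 in RA (SE 0.047, limma adjusted p = 0.28), with an interaction of -0.43 (SE 0.066, limma adjusted p = 4.26e-05). Ring1, a Polycomb ubiquitin ligase, rose in WT by 0.67 and in RA by 1.14 (SE 0.093 for each, limma adjusted p = 4.35e-06 and 9.09e-09). Epc1 rose the most in WT (0.87, SE 0.050, limma adjusted p = 4.44e-11), and Cbx3 fell the most in both genotypes (-1.48 in WT and -1.27 in RA, SE 0.041). Of 5 germline genes that E2F6 is known to silence, only Stag3, a meiotic cohesin subunit, passed the filter. It rose in WT from 1.004 ± 0.0054 to 2.96 ± 0.044 and in RA from 0.817 ± 0.050 to 1.93 ± 0.43. The means of Smc1b, which was below the filter, went the other way. They were 0.746 ± 0.26 and 0.557 ± 0.19 in normal and starved WT, whose libraries overlapped. In RA they were 0.612 ± 0.044 and 0.425 ± 0.16. Slc25a31, Tuba3a and Tuba3b had group means of at most 0.199.

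Upstream of the pocket proteins, 15 G1 regulators were listed (cyclins, their kinases, kinase inhibitors and Cdc25a). Of these, 13 fell and 2 rose in WT upon starvation, and 11 fell and 1 rose in RA. Among all tested genes, 39.2% were lower and 39.3% higher in WT, and 33.7% and 35.0% in RA. Ccnd1, the cyclin D1 gene, fell in WT from 338 ± 1.2 to 15.7 ± 1.1 and in RA from 355 ± 2.2 to 80.6 ± 1.0, with an interaction of 2.22 (SE 0.062, limma adjusted p = 2.8e-14). Cdkn1a, the p21 kinase inhibitor gene, rose in WT from 10.1 ± 0.29 to 20.7 ± 3.2 and in RA from 9.59 ± 0.69 to 28.8 ± 0.21 (interaction 0.53, SE 0.13, limma adjusted p = 0.00309). The other listed kinase inhibitor genes went the other way in WT means. Cdkn1b fell from 41.3 to 23.4, Cdkn1c from 15.3 to 6.67 and Cdkn2b from 60.3 to 19.7. Cdkn2c fell from 21.9 to 4.95 and Cdkn2d from 21.7 to 3.13. In RA means they fell too, except Cdkn1c (14.4 in normal medium and 16.1 starved). Ccne2, a cyclin E gene activated by E2F, fell by 0.53 in WT and by 1.02 in RA (SE 0.053 for each, limma adjusted p = 8.51e-08 and 2.36e-11).

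Downstream, S phase and mitotic targets differed between genotypes in opposite directions. Of 37 S phase E2F targets, 25 fell and 5 rose in WT (39.2% and 39.3% of all tested genes), with a median log2 difference of -0.33, and 36 fell and 0 rose in RA (33.7% and 35.0% of all tested genes), with a median of -0.67 (limma at an unadjusted p, edgeR and DESeq2 likewise called 36). The interaction was called lower in RA for 26 of them and higher for 5, beside 26.1% and 24.5% of all tested genes. Of 30 G2 and M phase targets of MuvB and FoxM1, 30 fell in each genotype, with a median of -2.89 in WT and -2.26 in RA, and the interaction was called higher in RA for 27 and lower for 1. An E2F word was in the windows of 13 of 31 S phase targets with a promoter entry (41.9%) and 1 of 26 G2 and M phase targets (3.85%), and a CHR word in 19.4% and 76.9%. Tk1, the thymidine kinase gene, fell in both genotypes and less so in RA (interaction 0.59, SE 0.081, limma adjusted p = 1.53e-05). Plk1, a mitotic kinase gene, fell in WT from 90.9 ± 0.90 to 3.34 ± 0.56 and in RA from 86.6 ± 6.8 to 8.01 ± 1.6. Nek2, a centrosome kinase gene, was the exception among mitotic targets, with a fall in WT of 0.60 and in RA of 1.05 (interaction -0.45, SE 0.082, limma adjusted p = 0.00025).

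**Figure D4:**
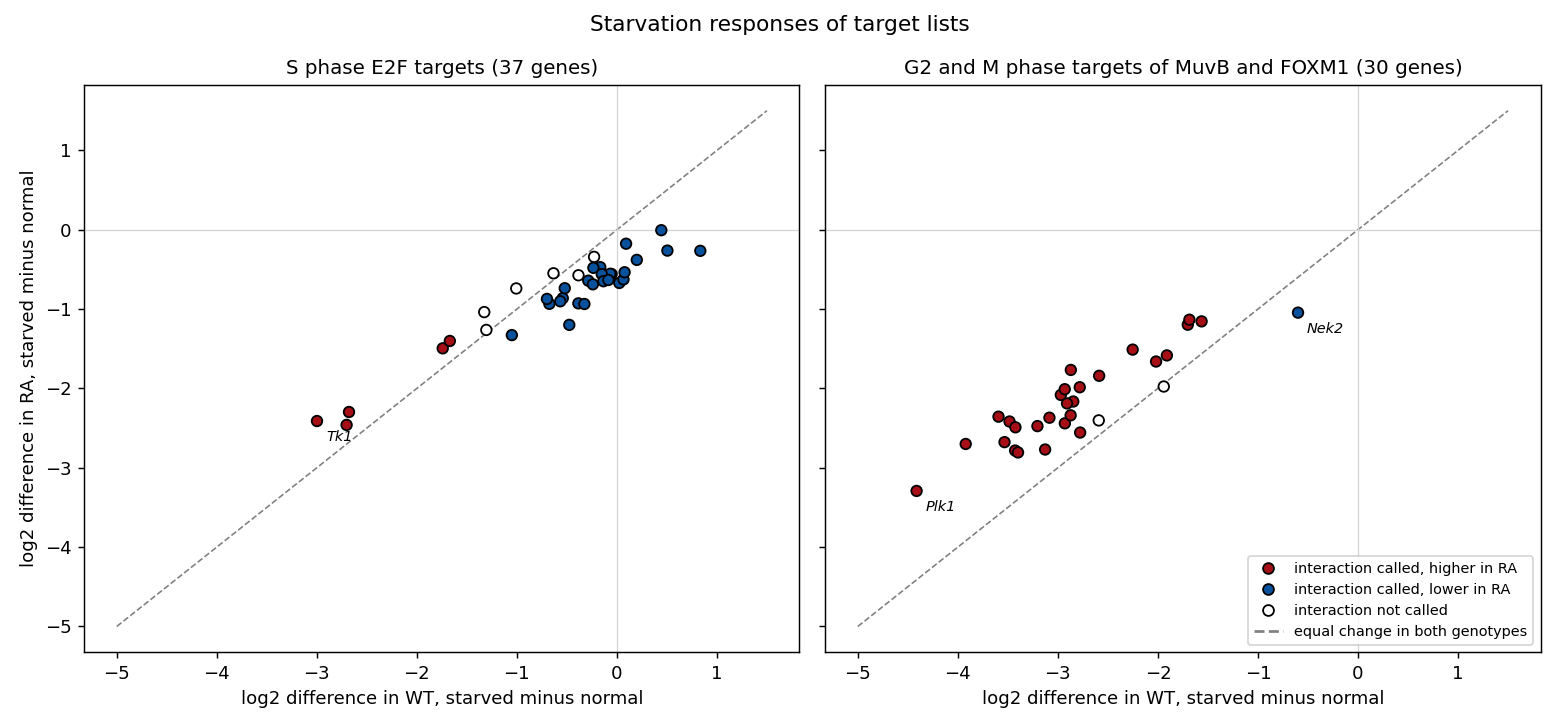
Starvation response in RA (y axis) against that in WT (x axis), as log2 differences from limma, for the 37 S phase E2F targets (left) and the 30 G2 and M phase targets (right); points are genes, filled red or blue where the interaction was called higher or lower in RA, and the dashed line marks equal change. S phase targets lie mostly below the line (26 called lower in RA) and G2 and M phase targets mostly above it (27 called higher in RA).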

How the data were processed

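RNA from 8 MEF samples, 2 per group, was sequenced by the authors as paired-end polyA libraries (TruSeq v2, Illumina HiSeq) and mapped to mm9. The submitters' processing notes name TopHat2 2.0.9, bedtools and edgeR. The annotation, counter settings, strand handling and filters are not given in the sources used here. The authors deposited a signal per gene symbol, which is the read count divided by a library size scaled per sample. The planned unit was plain CPM, and the same test was kept. All nonzero values (100%) were whole reads within 0.01, so reads were recovered, and 3 reads equal 0.0548 to 0.069. Of counts from 1 to 9, 78.2% to 80.5% were even, as when both mates are counted, so tests on recovered reads treat mates as independent.

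The 16232 genes that reached 1 in 2 or more samples were tested with limma 3.58.1 in R 4.3.3 on log2(value + 1), with group means over all 8 samples, a mean-variance trend, 2-sided p-values, Benjamini-Hochberg adjustment within each of 5 contrasts and a threshold of 0.05. Fold changes on this scale understate those of low genes. Given folds are ratios of group means. Alternatives were pseudocounts of 0.1 and 0.5, other filters, median-ratio, total-read and quantile scaling, fewer groups, a replicate block, no trend, a threshold of 0.01, edgeR 4.0.16, DESeq2 1.42.0, and leaving out each sample. The test was tried on simulated counts. The labels do not say whether replicate numbers pair the samples, and the main fit used no pairing. The members and lists, written from general knowledge, were chosen with earlier results of these data known. Named were all members, DP and MuvB genes. Of other lists, these were the called genes with the highest and lowest difference in a comparison, among those with a mean of at least 10. The text gives a part of these. The germline genes and the kinase inhibitor genes other than Cdkn1a were named after their values were seen. Several list genes share exon bases with other genes, the most being 4648 bases of Chaf1a with Ubxn6 and 2758 of Gins2 with Gse1. Rbbp4 shares 782 with Sync and 796 with Gm26722. Cbx3 has 8 pseudogene symbols. The values of such genes are less certain. Promoters are RefSeq windows on GRCm38.p6.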

Additional observations from a re-analysis of the deposited data

Results flagged for a closer look

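The starvation response differed between genotypes by the interaction test for 5 of the 10 genes. The response in RA less that in WT, on the log2 scale, was -0.417 for E2f1, 0.513 for E2f5, 0.276 for Rbl2, -0.173 for E2f4 and -0.248 for E2f3. The interaction was called for 50.6% of all tested genes, so 5 of 10 is near the background. E2f1 rose in WT by 0.51 and E2f5 and Rbl2 fell there by 0.52 and 0.30, and none of these 3 was called in RA. E2f4 and E2f3 were lower in starved RA than in starved WT, though the E2f4 difference lost its call with edgeR and with total-read scaling. The interactions of E2f3 and E2f4 were not called with edgeR (adjusted p = 0.0558 and 0.0584) or total-read scaling (limma adjusted p = 0.136 and 0.173). That of Rbl2 was not called at a threshold of 0.01 (limma adjusted p = 0.0134). Only the interactions of E2f1 and E2f5 kept their call in each alternative. The Ruvbl1 level, the summed fibroblast markers and the spread between starved RA libraries also differed between genotypes, and their part in these 5 results was not tested.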

How the results depend on the processing

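Over the 10 genes and 5 comparisons, 967 of the 1050 recomputed log2 differences kept their direction and their side of the threshold, 47 lost the call, 13 gained it and 23 changed sign, none of them called before or after. Between genotypes in normal medium, E2f1 turned to -0.0058 with total-read scaling, and E2f6 to -0.034 with total-read scaling, -0.0018 with quantile normalization and -0.0058 with DESeq2. Between starved genotypes E2f2 turned to -0.076 with quantile normalization, and E2f3 in WT to 0.0017 with median-ratio scaling. The interaction turned to 0.068 with total-read scaling and 0.019 with edgeR for E2f7, and to 0.046 and 0.0066 for Rbl1. When each library was left out, values ran from -0.064 to 0.087 for E2f6 in normal medium, from -0.093 to 0.078 for the WT response of E2f3, from -0.079 to 0.060 and from -0.068 to 0.017 for the RA responses of E2f5 and Rbl2, and from -0.028 to 0.024 and from -0.11 to 0.062 for the interactions of E2f7 and Rbl1. In normal medium, the count of genes called between genotypes moved from 1 to 2 with total-read scaling, quantile normalization, the replicate block and edgeR, where Rbl2 joined E2f7 (adjusted p of 0.0184, 0.0474, 0.0393 and 0.0436). It ran from 0 to 1 when each library was left out. The count of interactions moved from 5 to 3 with no filter, total-read scaling, no trend and edgeR, to 2 at an adjusted p under 0.01, and from 2 to 5 when each library was left out. E2f1 and E2f5 were among those called in each case. The change of the Rbl1 to Rbl2 ratio in RA less that in WT, -0.31, ran from -0.38 to -0.25 when each library was left out. The causes were not tested. Same-numbered replicates deviated together only weakly (correlations from -0.00764 to 0.157 over 6 pairs). Counting noise also lowers such correlations, so they cannot decide whether the numbers pair the samples. The replicate block also let E2f6 be called between starved genotypes (limma adjusted p = 0.0483). Among all genes called between genotypes in normal medium, 69.4% were higher in RA as deposited, 66.1% with median-ratio, 40.5% with total-read and 52.6% with quantile scaling; in the interaction 48.4% were higher as deposited and 58.1% with total-read scaling. The lists in normal medium had few calls and changed with the setting (the G2 and M phase list had 2 called, 9 with total-read scaling).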

Other observations

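For each of the 10 genes, the genes with the most similar log2 values over the 8 samples were found among genes whose mean value reached 10. The points of such a correlation are 8 libraries in 4 groups, so it describes which group means run in parallel. E2f2 ran closest to Mki67, the gene of the proliferation marker Ki-67 (Pearson r = 0.9992), and almost as close to Lpcat1 (r = 0.9989). For E2f7 the closest were Rhobtb3 (r = 0.999) and Gm11946 (r = 0.9986). For E2f8 they were Sec24d (r = 0.998) and Ncapd3, a condensin subunit gene (r = 0.9969). E2f1 ran closest to Gtf2a1, a general transcription factor gene (r = 0.994), and Wapl, a cohesin release factor gene (r = 0.9916). E2f5 ran closest to Samd14 (r = 0.9925) and Lgalsl (r = 0.9903). For Rbl1 the closest were Polr3g, an RNA polymerase III subunit gene (r = 0.9944), and Zdhhc8 (r = 0.9939). The closest gene was Hmbox1 for E2f3 (r = 0.9862), Rtca for E2f4 (r = 0.9868) and Fndc4 for E2f6 (r = 0.9814). Such patterns were common for some members: 1279 of 10498 genes had r over 0.95 with E2f2, 933 of 10497 with E2f7 and 744 with E2f8, but 21 with E2f3 and 1 with Rbl2, whose closest gene was Syde1 (r = 0.9516).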
